A study of Rattus norvegicus with 20 samples.

Results

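The doubling of the tricresyl phosphate dose from 248.6 to 497.3 mg/kg body weight was examined in rat liver, with 3 arrays at each dose, chosen by the dose in their titles, out of 20 arrays in the study. Tricresyl phosphate (TCP) is an organophosphate ester added to plastics, lubricants and hydraulic fluids. All animals were male Harlan Sprague Dawley rats, and the sources used here do not state their age. Both groups received TCP in corn oil by oral gavage, once daily for 4 days, and the left liver lobe was sampled on the following day, with 1 array per rat. The other groups were a corn oil control (5 rats) and 62.3, 124.5 and 994.6 mg/kg TCP in corn oil (3 rats each). No control array entered the comparison itself, but all 20 arrays entered the fit from which the error of each gene was taken. All values are log2 RMA expression levels, so a difference of 1 is a doubling of signal.

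The liver clears organophosphate esters by oxidation, ester cleavage and conjugation, and its hepatocytes share the organ with Kupffer cells (resident macrophages), sinusoidal endothelial cells, stellate cells and lymphocytes. NF-kB is a transcription factor that is held in the cytoplasm by inhibitor proteins and, once released by stress or cytokine signals, activates chemokine, cytokine and adhesion genes together with its own inhibitors. Tnfaip3 encodes A20, a ubiquitin-editing enzyme that shuts off signalling to NF-kB and is itself a target of it. Chemokines such as Ccl2 and Cxcl10 are small secreted proteins that draw monocytes and T cells into tissue.

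Of 14217 genes tested, 1 was called at a limma adjusted p under 0.05 (0.00703% of genes), and it was Tnfaip3, which was higher at 497.3 mg/kg. No gene was called lower (257 were lower at an unadjusted p under 0.05, 1.81% of genes). At an unadjusted p under 0.05 there were 638 genes (4.49%), 381 of them higher (2.68%). The 3 arrays of one dose lay apart from the 3 of the other for 1467 genes (10.3%), 756 of them higher (5.32%) and 711 lower (5.00%) at 497.3 mg/kg. The estimates were tight for most genes: the median standard error was 0.12, and the 95% interval lay within 2-fold in both directions for 13932 genes (98.0%) and within 1.5-fold for 12737 (89.6%). The estimate exceeded 2-fold for 17 genes, 11 higher and 6 lower, and the arrays of the doses did not overlap for 8 of these.

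**Figure D1:**
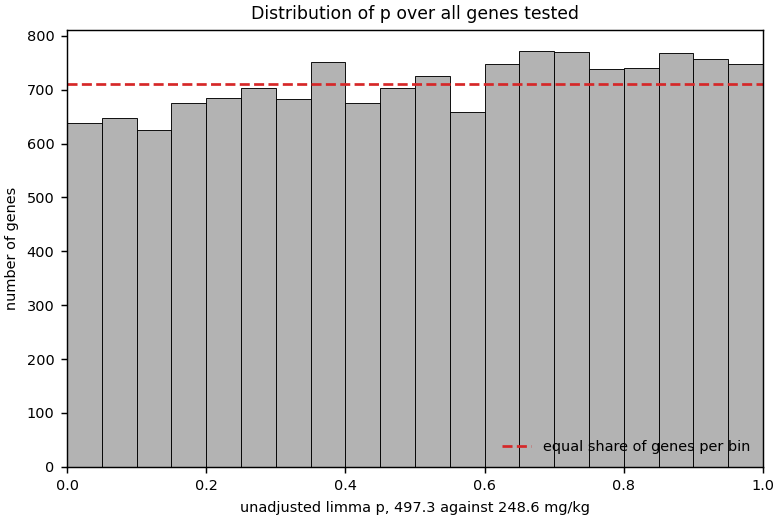
Number of genes (vertical axis) in bins of the unadjusted limma p (horizontal axis) for 497.3 against 248.6 mg/kg, over all 14217 genes; the dashed line is an equal share per bin. The lowest bin holds 638 genes and the next 648, both under the dashed line.

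The same fit gave 0 called genes for the doubling from 62.3 to 124.5 mg/kg (299 at an unadjusted p under 0.05, 2.10%), 0 from 124.5 to 248.6 mg/kg (343, 2.41%) and 3 from 497.3 to 994.6 mg/kg (0.0211%; 1082 unadjusted, 7.61%). Neighbouring doublings share the arrays of the dose between them. The difference between this doubling and the next was called for 0 genes (674 at an unadjusted p under 0.05, 4.74%; lowest adjusted p = 0.279), and the difference from the previous one for 0 (398, 2.80%). Against the same 5 control rats, 8 genes were called at 248.6 mg/kg (0.0563%) and 104 at 497.3 mg/kg (0.732%), by limma at an adjusted p under 0.05. A larger count at one dose does not itself show a difference between the doses.

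The tissue carried hepatocyte markers at both doses. Alb, the albumin gene, was at 15.35, 15.35 and 15.34 at 248.6 mg/kg and at 15.35, 15.34 and 15.34 at 497.3 mg/kg, and the 13 hepatocyte markers had a median difference of 0.00033. Alb lay at the top of the measured range (highest level on any array 15.36), where a difference can be missed. Array quality measures overlapped between the doses. The GAPDH control transcript, whose 3' signal minus 5' signal reflects RNA integrity and labelling, gave 0.99 ± 0.12 at 248.6 mg/kg and 0.81 ± 0.10 at 497.3 mg/kg (SD, n = 3; exact two-sided permutation p = 0.2, and 0.667 adjusted over 5 measures; 3 arrays against 3 cannot go below 0.1). Pairs of arrays correlated at 0.994 to 0.995 within 248.6 mg/kg, 0.993 to 0.995 within 497.3 mg/kg and 0.992 to 0.995 between the doses. Replicate 2 of 124.5 mg/kg stood apart in the GAPDH measure (2.58) and replicate 1 of 994.6 mg/kg on the first principal component (37.1, with the 6 arrays between -8.67 and 7.18). Both are outside the comparison but inside the fit. Among the 6 arrays alone, replicate 3 of 248.6 mg/kg lay at 17.7 on the first principal component (the others between -15.1 and 6.64) and replicate 3 of 497.3 mg/kg at 20.1 on the second (the others between -9.32 and 1.83), and the Tnfaip3 results below are also given without each.

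Tnfaip3 was at 7.14, 6.94 and 6.76 in replicates 1, 2 and 3 of 248.6 mg/kg and at 7.89, 8.16 and 8.58 in those of 497.3 mg/kg. All 3 arrays of the higher dose lay above all 3 of the lower. The difference was 1.26 ± 0.19 (limma standard error; 2.40-fold, 95% interval 0.86 to 1.67, adjusted p = 0.0474). The mean level was 6.92 in control, 7.04 at 62.3, 7.27 at 124.5, 6.95 at 248.6, 8.21 at 497.3 and 8.08 at 994.6 mg/kg, so the largest difference from control among the 3 lower doses was 0.35. The difference stayed between 1.08 and 1.42 with any 1 of the 6 arrays left out, but the call was lost in several alternatives. The adjusted p was 0.275 in a fit of only the 6 arrays, 0.170 with the 15 treated arrays, 0.0640 without replicate 1 of 994.6 mg/kg and 0.0577 without replicate 2 of 124.5 mg/kg. Without replicate 1, 2 or 3 of 248.6 mg/kg it was 0.0754, 0.324 and 0.623, and without replicate 1, 2 or 3 of 497.3 mg/kg 0.00428, 0.115 and 0.530.

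**Figure D2:**
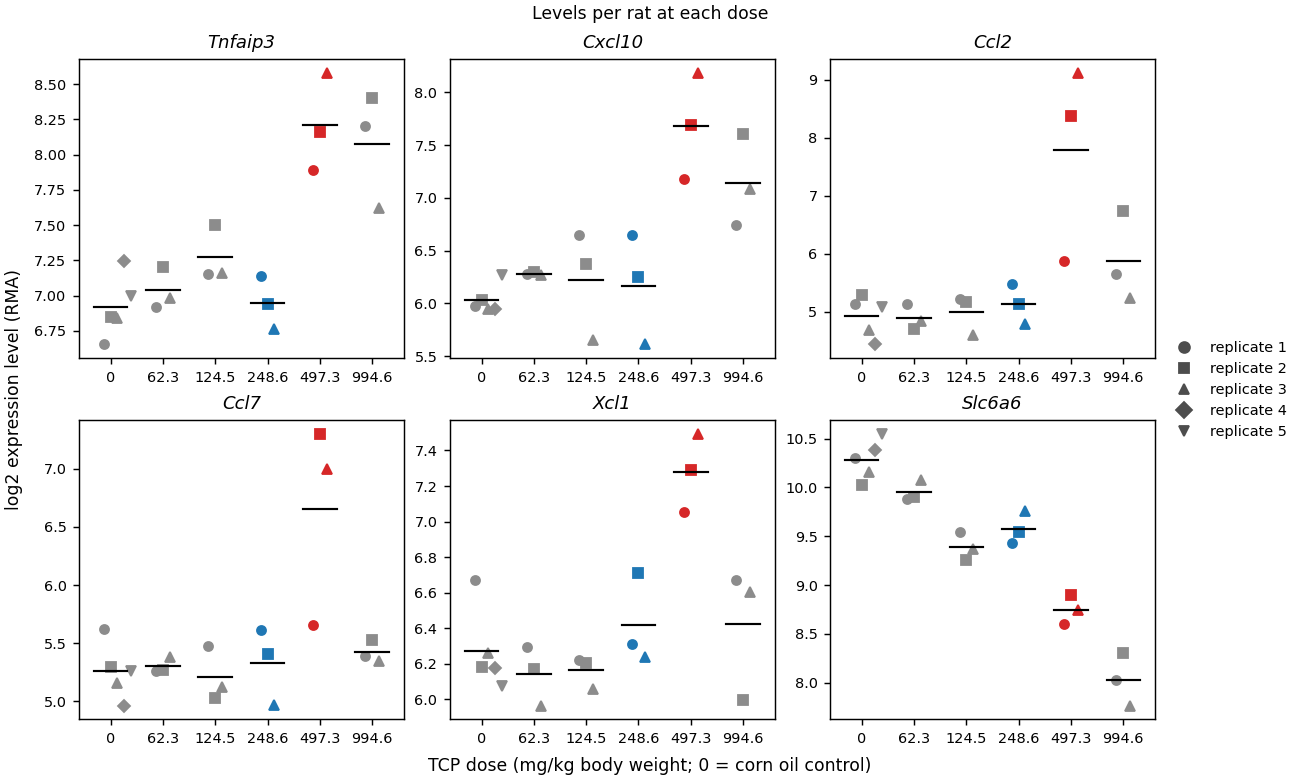
Log2 expression level (vertical axis) of 6 genes against TCP dose (horizontal axis, mg/kg body weight, 0 for corn oil), with 1 point per rat, shapes for replicate numbers and a bar at each group mean; 248.6 mg/kg is blue and 497.3 mg/kg red. For Ccl2 and Ccl7, replicates 2 and 3 of 497.3 mg/kg stand high and replicate 1 lies near the 248.6 mg/kg arrays, while Slc6a6 steps down.

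The bases just upstream of the annotated starts of 4 of the genes with the smallest p among those higher at 497.3 mg/kg are shown because each holds a match to the kappa-B consensus, the element that NF-kB dimers bind. Each run is 250 bases, 5′ to 3′ along the gene's strand and ending at the base before the start, from RefSeq on GRCr8, with kappa-B matches on either strand in capitals. Looser forms of the consensus were not searched, and stretches that meet only those stay in lower case. The regions are chr1:15543980-15544229 (minus strand) for Tnfaip3, chr14:15988816-15989065 (plus) for Cxcl10, chr10:67513845-67514094 (plus) for Ccl7 and chr4:5894576-5894825 (minus) for Il6.
Tnfaip3: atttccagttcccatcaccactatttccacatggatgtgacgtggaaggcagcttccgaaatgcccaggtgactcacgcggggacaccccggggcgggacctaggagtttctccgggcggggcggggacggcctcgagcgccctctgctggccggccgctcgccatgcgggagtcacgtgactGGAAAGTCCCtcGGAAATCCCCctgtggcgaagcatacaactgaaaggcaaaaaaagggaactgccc
Cxcl10: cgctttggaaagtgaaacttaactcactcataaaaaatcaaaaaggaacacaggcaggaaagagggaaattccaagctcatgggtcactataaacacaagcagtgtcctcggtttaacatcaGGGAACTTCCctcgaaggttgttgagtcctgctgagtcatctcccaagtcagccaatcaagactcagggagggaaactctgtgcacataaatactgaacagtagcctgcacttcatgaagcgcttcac
Ccl7: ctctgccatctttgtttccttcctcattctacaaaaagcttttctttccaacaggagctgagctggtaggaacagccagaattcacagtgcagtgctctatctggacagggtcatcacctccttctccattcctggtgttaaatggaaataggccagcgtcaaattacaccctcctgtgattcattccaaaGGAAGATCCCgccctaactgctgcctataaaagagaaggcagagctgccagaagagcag
Il6: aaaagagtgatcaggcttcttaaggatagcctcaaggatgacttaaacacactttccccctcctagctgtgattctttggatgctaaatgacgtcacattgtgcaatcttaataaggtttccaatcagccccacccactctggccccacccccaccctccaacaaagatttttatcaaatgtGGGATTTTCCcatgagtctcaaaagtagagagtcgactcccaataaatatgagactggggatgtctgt

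Tnfaip3 had matches at -67 to -58 and at -55 to -46 relative to the start, Cxcl10 at -128 to -119, Ccl7 at -59 to -50 and Il6 at -68 to -59. Among the 10 genes with the smallest p in each direction, RefSeq upstream sequence was matched for 9 higher and 9 lower genes, and the kappa-B consensus, searched on both strands as 3 G, a purine, any base, 3 pyrimidines and 2 C, was present in 4 of the 9 higher and 0 of the 9 lower. It was present in 4.24% of 33469 upstream regions of the same length. The AP-1 motif TGANTCA was present in 3 higher and 0 lower genes (6.34% of all regions) and TATAAA in 3 and 2 (12.9%). No kappa-B match overlapped a match to another of these motifs in the regions shown. Ccl2 among the higher genes and Ppp1r3b among the lower had no sequence here. The genes were picked by their p in this comparison, and whether matches were more common among them was not tested. A match describes letters in this window and is not a measurement of binding.

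None of the other genes named below passed the test over all genes, and their values are given as measured. Among chemokine ligands, Cxcl10, which attracts activated T cells, was at 6.65, 6.25 and 5.61 at 248.6 mg/kg and at 7.18, 7.69 and 8.19 at 497.3 mg/kg (1.52 ± 0.28, adjusted p = 0.127). Ccl2, the main monocyte attractant, was at 5.48, 5.14 and 4.79 and then at 5.87, 8.39 and 9.12 (2.66 ± 0.54, adjusted p = 0.319), which was the largest estimate of any gene. The groups did not overlap for either gene, but for Ccl2 replicate 1 of 497.3 mg/kg lay nearer to the 248.6 mg/kg arrays than to its own group. Ccl7, another monocyte attractant, was at 5.61, 5.41 and 4.96 and then at 5.65, 7.30 and 7.00 (1.32 ± 0.28, adjusted p = 0.319). Its replicate 1 at 497.3 mg/kg was close to replicate 1 at 248.6 mg/kg. The SDs at 248.6 and 497.3 mg/kg were 0.34 and 1.71 for Ccl2, and 0.33 and 0.88 for Ccl7. The limma error takes 1 spread per gene for all groups, so it understates the spread of both genes at 497.3 mg/kg. Xcl1, made by T and natural killer cells, was at 6.31, 6.71 and 6.24 and then at 7.06, 7.29 and 7.49 (0.86 ± 0.18, adjusted p = 0.319), with all 3 arrays of the higher dose above the lower.

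Levels at 994.6 mg/kg were nearer to those of the lower doses for several of these genes. Mean Ccl2 was 4.92 in control, 5.14 at 248.6, 7.79 at 497.3 and 5.87 at 994.6 mg/kg, and mean Ccl7 was 5.26, 5.33, 6.65 and 5.42 in the same order. Mean Xcl1 was 6.27, 6.42, 7.28 and 6.42, and mean Cxcl10 6.03, 6.17, 7.68 and 7.14. These genes were picked by their values at 497.3 mg/kg, so their lower levels at 994.6 mg/kg are given as a description only. The difference between the doublings was not called for any of them (adjusted p = 0.279 for Ccl2, Ccl7 and Xcl1, and 0.492 for Cxcl10).

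Across the whole family, 31 chemokine ligands were measured, a list that was drawn up after values had been seen. Their median difference was 0.16, against -0.0030 over all genes, and was 0.28 without replicate 1 of 497.3 mg/kg and 0.25 without replicate 2 of 248.6 mg/kg. Of the 31, 9 were higher at an unadjusted p under 0.05 and 0 lower (all genes 2.68% and 1.81%), and 8 had arrays that did not overlap, all higher (all genes 5.32%). Ccl4, which attracts macrophages and T cells, was at 6.31, 6.65 and 6.36 and then at 6.73, 7.08 and 7.79 (0.76 ± 0.20). Ccl3, of the same class, was at 6.64, 6.96 and 6.83 and then at 7.06, 7.12 and 8.50 (0.75 ± 0.26), with replicate 3 far above the rest. The neutrophil attractant Cxcl1 ranged from 8.61 to 11.10 at 248.6 mg/kg and from 9.31 to 10.68 at 497.3 mg/kg, so its groups overlapped widely, and Ccl20 (0.02 ± 0.12) and Ccl5 (-0.0058) had estimates near 0. The estimates thus varied among family members, from -0.11 for Ccl28 to 2.66 for Ccl2.

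A list of 36 NF-kB subunits, inhibitors and feedback targets, also drawn up after values had been seen, had a median difference of 0.21, with 33 estimates above 0 and 3 below. At an unadjusted p under 0.05, 9 were higher and 0 lower (all genes 2.68% and 1.81%), and 11 had arrays that did not overlap, all higher (all genes 5.32%). Their median against control was 0.0099 at 248.6 mg/kg and 0.16 at 497.3 mg/kg. Among subunits, Nfkb1 (p105 and p50) ranged from 8.90 to 9.04 and was then at 9.25, 9.45 and 9.68 (0.48 ± 0.14), and Relb was at 6.74, 6.61 and 6.51 and then at 7.02, 6.84 and 7.34 (0.45 ± 0.14). In both, every array of the higher dose was above every array of the lower, while Rela differed by 0.07. Among inhibitors, Nfkbia, which encodes I-kappa-B-alpha, was at 8.66, 8.19 and 8.55 and then at 8.89, 8.77 and 9.43 (0.56 ± 0.31), without overlap. Among targets, Bcl2a1, an anti-apoptotic gene of leukocytes, was at 7.67, 7.22 and 6.85 and then at 7.63, 8.02 and 8.59 (0.83 ± 0.25), where the groups overlapped. The cytokine gene Il1b was at 7.50, 7.63 and 7.22 and then at 7.95, 7.83 and 8.19 (0.55 ± 0.20), without overlap. Tnf, a principal inducer of the pathway, had an estimate of -0.14.

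The cytokine gene Il6 was at 3.62, 3.77 and 3.65 and then at 4.06, 4.00 and 4.29 (0.44 ± 0.10, adjusted p = 0.450), but its control mean was 3.96. Thus the 497.3 mg/kg mean of 4.12 was 0.16 above control, and the 248.6 mg/kg mean of 3.68 below it. All these Il6 levels lay far below the array medians (6.31 to 6.41), toward the lowest level on any array (2.74). The acute phase and inflammation list held 34 measured genes with a median of 0.071. Of these, 1 was called (Tnfaip3), 7 were higher and 1 lower at an unadjusted p under 0.05 (all genes 2.68% and 1.81%), and 10 higher and 1 lower had arrays that did not overlap (all genes 5.32% and 5.00%). The lower one, Stat3, which transmits Il6 signals in hepatocytes, was at 9.61, 9.94 and 9.92 and then at 8.68, 8.67 and 9.46 (-0.88 ± 0.41). Among plasma proteins Fga differed by 0.01, Hp by 0.03 and A2m by -0.07, whereas Crp was at 12.91, 13.00 and 12.88 and then at 13.37, 13.24 and 13.22 (0.34 ± 0.21).

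Of 33 interferon response genes, 30 had an estimate above 0 and the median was 0.26. At an unadjusted p under 0.05, 6 were higher and 0 lower (all genes 2.68% and 1.81%), and 9 had arrays that did not overlap, all higher (all genes 5.32%). Their median against control was 0.045 at 248.6 mg/kg and 0.27 at 497.3 mg/kg. Tap1, a peptide transporter of antigen presentation, was at 8.31, 8.55 and 8.17 and then at 9.04, 8.99 and 8.65 (0.55 ± 0.19). Ifit3, an antiviral effector, was at 5.23, 5.58 and 4.87 and then at 5.75, 6.34 and 5.63 (0.68 ± 0.27). Both groups stood apart in each case. The ubiquitin-like Isg15 (0.38 ± 0.28) overlapped between the doses, at 8.48, 8.34 and 8.22 and then at 8.43, 9.22 and 8.55. At 994.6 mg/kg its arrays were at 9.84, 9.86 and 9.75. The list's median was 0.14 without replicate 2 of 497.3 mg/kg, 0.48 without replicate 3 and 0.17 without replicate 3 of 248.6 mg/kg.

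**Figure D3:**
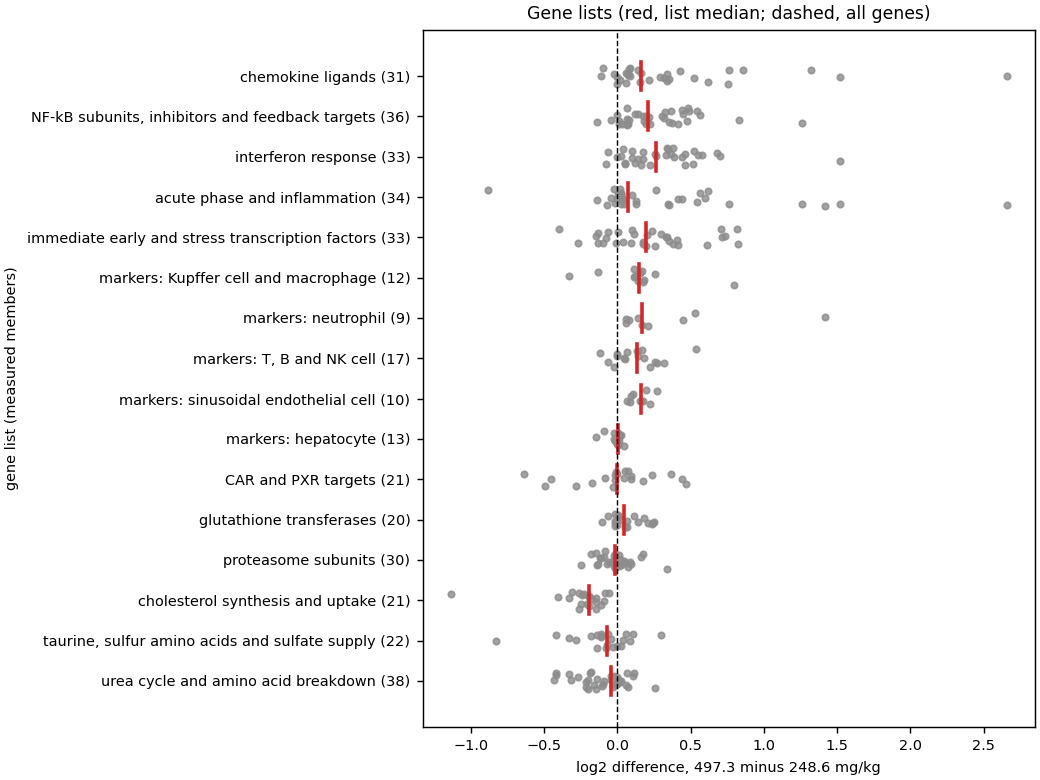
Log2 difference, 497.3 minus 248.6 mg/kg (horizontal axis), of each measured member (points) of 16 gene lists (vertical axis, number of members in brackets), with the list median as a red bar and the median of all genes dashed. Interferon, NF-kB and chemokine members lie mostly to the right of 0, the 21 cholesterol genes all to the left, and hepatocyte markers near 0.

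The order of the 3 rats at 497.3 mg/kg differed between the NF-kB and interferon lists. The median deviation of the NF-kB list from each gene's mean over the 6 arrays was 0.00076, 0.12 and 0.23 in replicates 1, 2 and 3 of 497.3 mg/kg, and -0.093, -0.081 and -0.15 in those of 248.6 mg/kg. For the interferon list it was 0.088, 0.38 and -0.032 at 497.3 mg/kg, and -0.061, -0.063 and -0.31 at 248.6 mg/kg. Replicate 3 of 497.3 mg/kg was therefore highest for NF-kB genes and lowest of its group for interferon genes. Among the 10 higher genes with the smallest p, replicate 1 was the lowest 497.3 mg/kg array for 8 and replicate 3 the highest for 8.

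Without replicate 1 of 497.3 mg/kg, 12 genes were called by limma, all higher: Ccl2, Ccl7, Cxcl10, Egr2, Emp1, Fcnb, Krt20, Lypd8l1, Plek, S100a4, Tm4sf1 and Tnfaip3. This fit leaves 2 arrays at that dose and is an alternative, not the main result. Replicate 1 was the lowest array of its dose for 8 of the 10 higher genes with the smallest p, so leaving it out raises their estimates. Leaving out any other array of the 6 gave 0 calls, so the values below are a description only. Ccl2 then differed by 3.62 ± 0.35 (adjusted p = 9.43e-05) and Ccl7 by 1.82 ± 0.19. Krt20, an epithelial keratin, was at 5.70, 5.63 and 5.63 at 248.6 mg/kg and at 5.48, 6.85 and 6.70 at 497.3 mg/kg, so that replicate 1 lay below the lower dose. Tm4sf1, a membrane protein of endothelial and epithelial cells, was at 6.12, 6.15 and 5.99 and then at 6.01, 7.23 and 7.18, again with replicate 1 among the lower dose. Emp1, an epithelial membrane protein, was at 7.86, 7.42 and 7.03 and then at 7.49, 8.84 and 8.83. In the same fit the difference from the next doubling was called for 7 genes, namely Ccl2, Ccl7, Emp1, Fcnb, Krt20, Lypd8l1 and Tm4sf1.

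**Figure D4:**
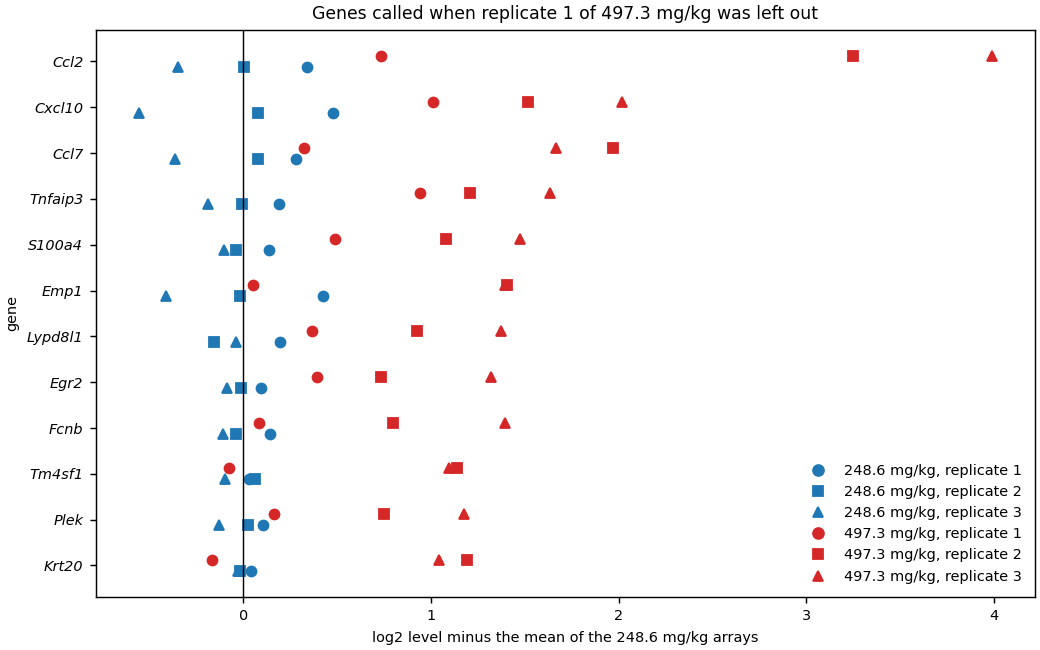
Log2 level minus the mean of the 3 arrays of 248.6 mg/kg (horizontal axis) for the 12 genes called when replicate 1 of 497.3 mg/kg was left out (vertical axis), with 1 point per array, blue for 248.6 and red for 497.3 mg/kg, and shapes for replicates. The red circles of replicate 1 lie at or near the blue points for Krt20, Tm4sf1, Emp1 and Fcnb, and above them for Tnfaip3.

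Markers of non-parenchymal cells were measured beside these genes. In bulk liver, more cells of a type and more RNA per cell cannot be told apart. Of 12 Kupffer cell and macrophage markers, 10 had an estimate above 0, the median was 0.15, and their summed linear signal was 14004 to 16619 at 248.6 mg/kg and 17241 to 18343 at 497.3 mg/kg. Lyz2, the lysozyme of macrophages, was at 11.14, 10.57 and 11.04 and then at 11.33, 11.48 and 12.33 (0.80 ± 0.23), whereas the resident markers Clec4f (0.12 ± 0.17) and Cd163 (-0.14 ± 0.15) overlapped between the doses. Cd14 went the other way, with the lowest estimate of the list (-0.33). At an unadjusted p under 0.05, 1 macrophage marker was higher and 1 lower (all genes 2.68% and 1.81%). Arrays did not overlap for 1 higher and 0 lower (all genes 5.32% and 5.00%). By array, the macrophage markers had a median deviation from their means over the 6 arrays of -0.088, 0.14 and -0.27 at 248.6 mg/kg. At 497.3 mg/kg it was 0.17, 0.16 and -0.16, so these medians overlapped between the doses, unlike the summed signal. Of 9 neutrophil markers, all had an estimate above 0 with a median of 0.17, and their summed signal was 387 to 496 and then 458 to 981. However, 0 of them had an unadjusted p under 0.05 and 0 had arrays that did not overlap. Their highest estimate was that of Lcn2, which was also on the glucocorticoid target list, at 6.52, 6.71 and 7.09 and then at 6.80, 8.85 and 8.93 (1.42 ± 0.87). All 10 sinusoidal endothelial markers had an estimate above 0 (median 0.16), with summed signals of 5670 to 7956 and then 7047 to 8460. Again, 0 had an unadjusted p under 0.05 and 0 had arrays that did not overlap. Over all genes, 6959 of 14217 estimates were above 0. Against control, however, the median of the endothelial markers was -0.20 at 248.6 mg/kg and -0.032 at 497.3 mg/kg, and that of the macrophage markers -0.075 and 0.10. The 17 T, B and natural killer cell markers had a median of 0.14, and Gzmb, the granzyme of cytotoxic cells, was at 5.08, 4.83 and 5.11 and then at 5.44, 5.75 and 5.44 (0.54 ± 0.16). The 8 cholangiocyte markers had a median of 0.16, the 15 stellate cell markers 0.093 and the 10 red blood cell markers -0.055, while those of pancreas, muscle and fat had 0.011. With any 1 of the 6 arrays left out, the median lay between 0.026 and 0.25 for macrophage markers and between 0.059 and 0.24 for endothelial markers, both lowest without replicate 3 of 248.6 mg/kg, and between 0.082 and 0.24 for neutrophil markers, lowest without replicate 1 of 248.6 mg/kg. For T, B and natural killer cell markers the median was 0.081 without replicate 3 of 248.6 mg/kg and 0.086 without replicate 1 of 497.3 mg/kg. For red blood cell markers it was -0.12 without replicate 1 of 248.6 mg/kg and turned to 0.012 without replicate 2 of 497.3 mg/kg. For stellate cell markers it ranged from 0.057 to 0.22 and for cholangiocyte markers from 0.11 to 0.27. No marker was called, and the part of these cells in the chemokine and NF-kB values was not tested.

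Among stress and immediate early transcription factors, 33 were measured with a median of 0.19, and 6 were higher and 0 lower at an unadjusted p under 0.05 (all genes 2.68% and 1.81%). Their median against control was -0.11 at 248.6 mg/kg and 0.0034 at 497.3 mg/kg, so the list was near control at the higher dose and below it at the lower. The median difference between the doses was 0.12 without replicate 2 of 497.3 mg/kg and 0.10 without replicate 3. Egr2, a zinc finger factor induced by growth and immune signals, was at 5.24, 5.13 and 5.05 and then at 5.53, 5.87 and 6.46 (0.82 ± 0.19, adjusted p = 0.573), without overlap, although its other probe set differed by -0.25. Nr4a1, an orphan nuclear receptor of the same early class, was at 5.07, 5.25 and 5.15 and then at 5.68, 5.40 and 6.51 (0.70 ± 0.18). Klf4 was at 6.75, 6.72 and 6.26 and then at 7.06, 7.41 and 7.40 (0.71 ± 0.20). Both stood apart between the doses. Jun, the AP-1 subunit, was at 8.48, 8.45 and 9.34 and then at 8.54, 8.63 and 8.69 (-0.13 ± 0.25), and at 10.50, 11.11 and 10.64 at 994.6 mg/kg. Over the next doubling Jun differed by 2.13 (adjusted p = 0.00132), so it was called there and not here, and the difference between the doublings was not called (adjusted p = 0.279).

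The other genes with the smallest p in the higher direction were Cd47, S100a4 and Lypd8l1. Cd47, the surface signal that restrains phagocytes, was at 9.56, 9.39 and 9.77 and then at 10.70, 10.46 and 10.16 (0.87 ± 0.19, adjusted p = 0.414), here with replicate 1 the highest. S100a4, a calcium-binding protein of motile cells, was at 7.30, 7.12 and 7.06 and then at 7.65, 8.24 and 8.63 (1.01 ± 0.22, adjusted p = 0.406). Lypd8l1 was at 5.63, 5.28 and 5.40 and then at 5.80, 6.37 and 6.81 (0.89 ± 0.19, adjusted p = 0.319). The groups did not overlap for any of the 3.

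In the lower direction the smallest p belonged to Slc6a6, the taurine transporter, which was at 9.43, 9.55 and 9.75 at 248.6 mg/kg and at 8.60, 8.89 and 8.75 at 497.3 mg/kg (-0.83 ± 0.14, adjusted p = 0.0985). All 3 arrays of the higher dose were below all 3 of the lower, and the gene was the second of 2 at an adjusted p under 0.10. Its mean was 10.28 in control, 9.95 at 62.3, 9.39 at 124.5, 9.58 at 248.6, 8.75 at 497.3 and 8.03 at 994.6 mg/kg. Of 22 genes of taurine, sulfur amino acid and sulfate supply, 4 were lower and 0 higher at an unadjusted p under 0.05 (all genes 1.81% and 2.68%), with a median of -0.073. Cbs, the first enzyme from homocysteine to cysteine, was at 11.55, 11.79 and 11.69 and then at 11.24, 11.38 and 11.14 (-0.42 ± 0.13). Csad, which makes the taurine precursor hypotaurine, was at 12.55, 12.45 and 12.55 and then at 12.18, 12.22 and 12.16 (-0.33 ± 0.12). Neither overlapped between the doses.

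**Figure D5:**
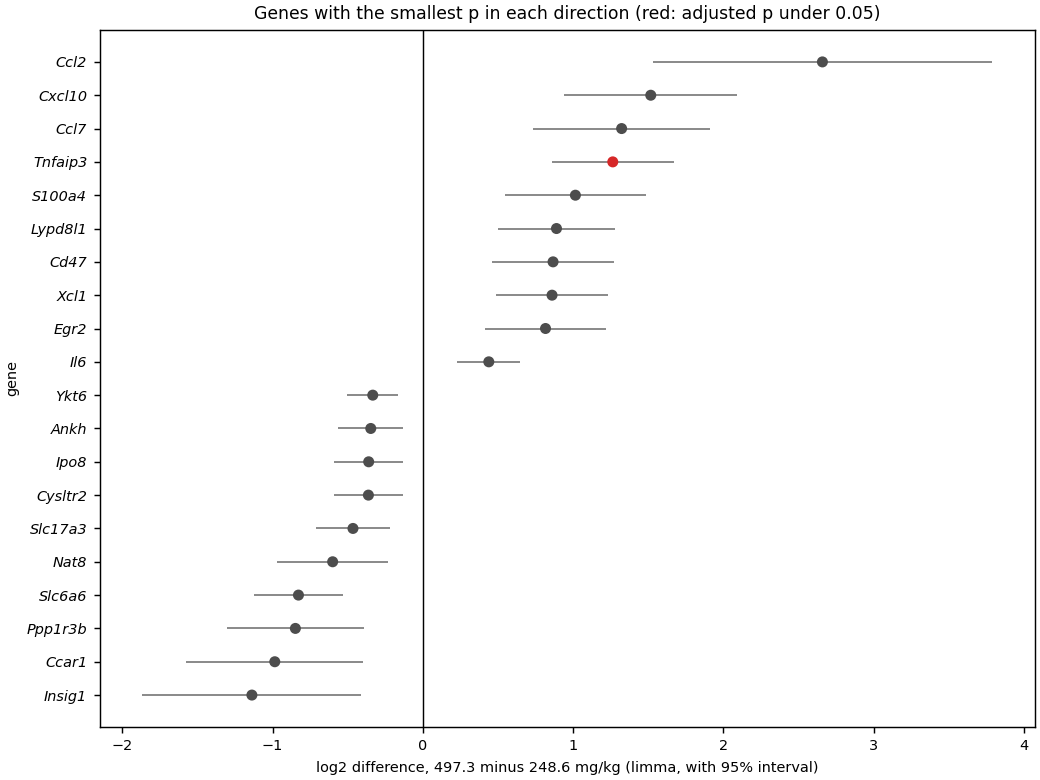
Log2 difference, 497.3 minus 248.6 mg/kg, with its 95% limma interval (horizontal axis), for the 10 genes with the smallest p in each direction (vertical axis); red marks an adjusted p under 0.05. Tnfaip3 is the only red point, and Ccl2 has the largest estimate with the widest interval among the higher genes.

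Ppp1r3b, which targets protein phosphatase to glycogen, was at 11.18, 11.16 and 12.09 and then at 10.71, 10.79 and 10.38 (-0.85 ± 0.22, adjusted p = 0.704), with replicate 3 of 248.6 mg/kg high. Nat8, an acetyltransferase of cysteine conjugates, was at 9.55, 9.58 and 9.59 and then at 9.05, 9.01 and 8.86 (-0.60 ± 0.18). Slc17a3, an organic anion and phosphate transporter, was at 10.87, 10.73 and 10.98 and then at 10.42, 10.41 and 10.36 (-0.47 ± 0.12). Ccar1, a coactivator of nuclear receptors, had the estimate -0.99 ± 0.28 and means of 9.20 at 248.6, 8.22 at 497.3 and 9.25 at 994.6 mg/kg. Its other probe sets, with lower signal, differed by -0.49, -0.12 and -0.027. Ykt6 (-0.33), Ankh (-0.35), Ipo8 (-0.36) and Cysltr2 (-0.36) differed by less. The groups did not overlap for any of these genes.

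All 21 genes of cholesterol synthesis and uptake had an estimate below 0, with a median of -0.20, but only 2 were lower at an unadjusted p under 0.05 and 2 had arrays that did not overlap (all genes 1.81% and 5.00%). The median against control was 0.16 at 248.6 mg/kg and 0.019 at 497.3 mg/kg, so the list was above control at the lower dose and near it at the higher. Insig1, which retains the SREBP activator in the endoplasmic reticulum and is itself a target of SREBP, was at 10.98, 10.56 and 11.54 and then at 10.04, 9.28 and 10.34 (-1.14 ± 0.35), without overlap. Sqle, squalene epoxidase, was at 9.54, 9.51 and 9.81 and then at 8.89, 9.38 and 9.60 (-0.33 ± 0.19), where the groups overlapped. The list's median was -0.10 without replicate 3 of 248.6 mg/kg and -0.32 without replicate 2. The 21 glucocorticoid targets and metallothioneins had a median of -0.015, with 9 estimates above 0 and 12 below. At an unadjusted p under 0.05, 2 were lower and 0 higher (all genes 1.81% and 2.68%). Arrays did not overlap for 2 lower and 1 higher (all genes 5.00% and 5.32%). The 2 lower ones were Klf9 (-0.75 ± 0.27) and Errfi1 (-0.68 ± 0.21), while the highest estimate was that of Lcn2 (1.42 ± 0.87), with overlap.

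Genes of xenobiotic handling had estimates in both directions over this doubling, and none was called. The 21 targets of CAR and PXR, the receptors that sense foreign chemicals, had a median of -0.00017, with 1 higher and 2 lower at an unadjusted p under 0.05 (all genes 2.68% and 1.81%), and 1 higher and 5 lower had arrays that did not overlap (all genes 5.32% and 5.00%). Their lowest estimate was that of the cytochrome P450 gene Cyp3a9 (-0.64 ± 0.56), which overlapped between the doses. Among 21 NRF2 targets (median -0.045), the aldo-keto reductase gene Akr7a3 had the lowest estimate (-0.49 ± 0.18), without overlap. The cystine transporter gene Slc7a11 had the highest (0.56 ± 0.41). Its doses barely stood apart, with the highest array of 248.6 mg/kg at 5.717 and the lowest of 497.3 mg/kg at 5.719. Ces2c, a carboxylesterase, was at 10.56, 10.51 and 10.51 and then at 10.90, 11.17 and 10.92 (0.47 ± 0.20), and Abcc3, a basolateral conjugate pump, was at 8.70, 8.19 and 9.27 and then at 8.75, 9.40 and 9.32 (0.44 ± 0.27). Ces2c stood apart between the doses and Abcc3 overlapped. Both were already called against control at 248.6 mg/kg, with adjusted p = 3.30e-04 for Ces2c and 5.25e-04 for Abcc3. Cyp3a23-3a1 (0.05 ± 0.20), Gsta3 (0.24 ± 0.22) and Cyp7a1, which starts the conversion of cholesterol to bile acids (0.21 ± 0.36), had intervals that included 0. The 20 glutathione transferases had a median of 0.042 and the 30 proteasome subunits -0.019. The esterases that organophosphates are known to inhibit had transcript estimates of 0.12 ± 0.14 (Bche, interval -0.17 to 0.42) and 0.13 ± 0.09 (Pnpla6, interval -0.047 to 0.32).

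Abcg5 and Abcg8, which together form the sterol pump, had estimates of -0.65 ± 0.36 and -0.72 ± 0.26, and both overlapped between the doses. Cyp1a1, the classical target of the aryl hydrocarbon receptor, had the lowest estimate of any gene (-1.56 ± 0.61), which rested on replicate 1 of 248.6 mg/kg: its arrays were at 10.17, 6.15 and 6.94 and then at 6.35, 6.27 and 5.96. The transcriptional repressor Bcl6 (2.33 ± 1.05) varied as widely within a dose, at 8.29, 9.96 and 6.63 and then at 11.02, 9.21 and 11.64. Ubd, an interferon- and Tnf-inducible ubiquitin-like modifier, was at 6.42, 6.13 and 5.90 and then at 9.24, 10.01 and 6.50 (2.43 ± 1.01), where replicate 3 was the low array and the groups nevertheless did not overlap.

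No gene was called in the following lists. No member passed an unadjusted p under 0.05 among 34 cell cycle, 34 oxidative phosphorylation, 31 fatty acid synthesis and 31 PPAR-alpha target genes, whose medians were 0.057, -0.0016, -0.10 and -0.011. Of 38 urea cycle and amino acid genes 3 were lower, of 23 clock genes 2 were higher, and of 14 p53 targets 1 was higher, at an unadjusted p under 0.05 (all genes 1.81% lower and 2.68% higher). That 1 was Fas, the death receptor, at 7.19, 7.04 and 7.10 and then 7.54, 7.42 and 7.88 (0.51 ± 0.16), without overlap. Nr1d1, the clock repressor, was at 6.02, 6.76 and 6.15 and then at 7.38, 7.12 and 6.24 (0.61 ± 0.39), with overlap.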

How the data were processed

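Liver RNA was measured on 1-colour Affymetrix arrays, 1 per rat. The authors deposited log2 expression levels, and the submitters' processing notes name RMA for them, without a version. The set of arrays normalized as one is not stated in the sources used here. Quantile scaling makes each difference relative to the bulk of genes. The levels ran from 2.74 to 15.4, with array medians of 6.31 to 6.41. The number of arrays limits the precision.

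Of 31042 probe sets other than controls, 20826 had 1 gene symbol, 436 several and 9780 none here. The probe set with the highest mean over 20 arrays stood for each of 14217 genes, with no filter on low levels. Tnfaip3, Cxcl10, Ccl2, Ccl7 and Xcl1 have 1 probe set each. Among the 10216 probe sets with no or several symbols, 0 were called (446 at an unadjusted p under 0.05; lowest adjusted p among them 0.512, adjusted over all probe sets).

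limma 3.58.1 in R 4.3.3 (lmFit with 1 mean per group, contrasts.fit, eBayes) was fitted to all 20 arrays, with 14 residual and 4.77 prior degrees of freedom, and gave the errors and the Benjamini-Hochberg adjusted p. The script was tested on simulated data. The dose labels were the only grouping.

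Named genes were called genes, filled to 10 per direction by the smallest p, the called or most changed members of each list, and genes named in advance. The members and lists were chosen with earlier results of these data known. No set test was run. Upstream sequences are from RefSeq (GRCr8). Summed signals are sums of unlogged levels. Alternatives covered the arrays in the fit, left-out arrays, a replicate block, filters, probe sets, normalization, eBayes options and array weights.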

Additional observations from a re-analysis of the deposited data

Results flagged for a closer look

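In the control group of 5 rats, 3 of 63 gene levels tested had 1 array far from the others, where chance alone marks about 1 in 20. Cxcl10 was at 6.27 in control replicate 5, with the others between 5.94 and 6.03. Lypd8l1 was at 5.48 in control replicate 2, with the others between 5.75 and 5.81. Ahsp, a chaperone of haemoglobin in red blood cells, was at 6.73 in control replicate 2, with the others between 6.50 and 6.53. No control array entered the difference between 497.3 and 248.6 mg/kg.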

How the results depend on the processing

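The estimate for Tnfaip3 stayed positive in every alternative that tested it. The count of called genes was 0, and Tnfaip3 not called at 1.26, with only the 6 arrays (adjusted p = 0.275), the 15 treated arrays (0.170), the mean of probe sets (0.0542), and, added after seeing the data, without 124.5 mg/kg replicate 2 alone (0.0577) or with 994.6 mg/kg replicate 1 also left out (0.0789). It was 0 as well with quantile normalization (1.25, 0.0554), array weights (1.16, 0.0658), every probe set on its own, and without the lowest 50% of genes, a filter that removes Tnfaip3. It was 2 at an adjusted p under 0.10. Leaving out 1 array gave 0 to 12 calls and a Tnfaip3 difference of 1.08 to 1.42. Without 994.6 mg/kg replicate 1 the adjusted p was 0.0640. With the replicate number as a block, the count was 0 on 18 arrays (Tnfaip3 1.26, adjusted p = 0.0982) and 0 on the 6 arrays (1.26, 0.303). Deviations of same-numbered arrays correlated at 0.063, 0.030 and 0.21. Those of differently numbered arrays correlated at -0.15 to 0.11, highest for replicate 2 of 497.3 mg/kg with replicate 1 of 248.6 mg/kg. What the numbers stand for is not stated, and these few pairs cannot tell whether same-numbered arrays share more than a number. The difference from the next doubling was called for 0 to 7 genes with 1 array left out, and for 2 with array weights (Jun and Xcl1).

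Estimates that changed sign with 1 array left out, none of them called, were Ddit4 (-1.13 to 0.12), Fabp4 (-0.017 to 0.44) and Jun (-0.28 to 0.16), turned by leaving out 248.6 mg/kg replicate 3, and Cyp7a1 (-0.080 to 0.39) and Cyp3a23-3a1 (-0.0075 to 0.12), turned by leaving out 497.3 mg/kg replicate 3. No scaling moved the median of all genes by more than 0.02. With 3 arrays a dose, intervals were within 1.5-fold for 89.6% of genes. The cause of the lost calls was not tested.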
